A study of Rattus norvegicus with 12 samples.

Results

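The genes described here were those annotated to ribosome biogenesis or rRNA processing in a table of RNA-seq counts from rat astrocytes. They were the rows whose GO Process text held either term, in any case, and held neither DNA repair nor DNA replication. Of the 9721 genes of the table, 93 had either term, 2 were left out by the second condition, and 91 made up the set. The rule itself uses no measured value, though the set was proposed with earlier results of these data known. Ribosome biogenesis was named in 42 of them and rRNA processing in 63, with 14 in both groups, and 66 of the 91 also carried a nucleolar GO component. All 91 passed the filter on low counts.

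Ribosomes are assembled mainly in the nucleolus, where RNA polymerase I makes a long precursor rRNA. Small nucleolar ribonucleoproteins (snoRNPs) guide its modification, a large early assembly called the small subunit processome folds and cuts the 18S part, and other factors build the pre-60S particle around the 28S, 5.8S and 5S rRNAs. Nucleases trim the ends, and both particles then pass through the nuclear pore and are finished in the cytoplasm. The genes for these factors are known to be expressed together in growing cells, and in brain they serve the high protein synthesis of developing neurons and glia.

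The cells were primary astrocytes of wild-type genotype taken from the midbrain of newborn Sprague-Dawley rats and grown in DMEM with 10% fetal bovine serum. They received 10 µM PT109B, a small molecule known here by its code name, and RNA was taken from a control group at 0 h and from groups at 1.5, 3 and 6 h, with 3 libraries each. All groups shared strain, genotype and medium, and the labels name neither a vehicle nor the number of animals behind a library. Whether replicate libraries stem from different cultures is not stated either, and a p-value here gauges only how libraries of a group varied, possibly for technical reasons. The series is about converting astrocytes to dopaminergic neurons, and the comparisons ask what changed at each time against control and between times.

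Libraries held 9368967 to 12498047 counts, of which the 91 genes took 0.889% to 1.21%. Levels are given as CPM on library sizes scaled by TMM (a trimmed mean that aligns the bulk of genes between libraries), and changes as log2 fold changes ± SE. A gene was called risen or fallen at a Benjamini-Hochberg adjusted p below 0.05 over 9491 genes in edgeR's quasi-likelihood test. Of 18 astrocyte markers 13 were in the table, and none of them was at 0 in any library (sums of 10992.9 to 16123.3 CPM). In each treated group 1 library stood apart from a pair of nearly identical ones and was the closest to the controls, namely replicate 3 at 1.5 h, replicate 3 at 3 h and replicate 1 at 6 h. Across all genes, log2 levels correlated at 0.990 to 0.991 within the pairs, at 0.897 to 0.945 between a pair and the library apart, and at 0.985 to 0.992 among controls. Results are therefore also given without these 3 libraries.

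In untreated cultures the set spanned a wide range of transcript levels. Per length, the median over the 91 genes was 15.3 FPKM in controls, and the genes between the 25th and 75th percentile lay at 8.34 to 24.4 FPKM. The highest 3 were not assembly factors. Glul, glutamine synthetase and itself an astrocyte marker, averaged 1159 ± 314 FPKM (SD, n = 3), and the ribosomal proteins Rps24 and Rpl11 averaged 623 ± 47.7 and 527 ± 48.2 FPKM. The kinase Riok3 came next at 89.1 ± 6.09 FPKM, above Xpo1 at 59.5 ± 2.64, Pes1 at 50.7 ± 1.79 and Nop56 at 44.1 ± 6.22 FPKM. At the low end, Ybey stood at 1.48 ± 0.442 FPKM and Fbll1, a relative of fibrillarin named after its values were seen, had the lowest mean, 0.384 ± 0.151 FPKM.

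By 6 h many genes of the set were higher than in controls, and most of these encoded assembly factors of the small or large subunit. At 6 h 44 of the 91 genes (48.4%) rose and 5 fell, where of all genes tested 18.7% rose and 11.8% fell. The median log2 fold change was 0.50 over the set and -0.02 over all genes. The 44 risen genes changed by 0.40 to 2.06 on the log2 scale, with a median of 0.72. In 53 genes all 3 libraries at 6 h lay above all 3 controls (28.2% of genes tested) and in 12 all lay below (27.5%). Without the 3 libraries that stood apart, 58 rose and 24 fell, against 33.3% and 41.8% of all genes, and all 44 risen and 5 fallen genes kept their calls. Such kept calls are no independent support, as these libraries were left out for lying nearest the controls. Leaving out 1 library gave fewer calls in most cases, with 28 risen without control replicate 3, 27 without replicate 2 at 6 h and 23 without replicate 3 at 6 h. Over all genes the risen share fell as well in these fits, to 12.4%, 10.5% and 10.4%. The fallen count was 3 and 2 without control replicates 1 and 3 (against 6.52% and 7.07% of all genes), and 11 without replicate 1 at 6 h (against 17.7%).

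Some of these genes were already called at 3 h and none at 1.5 h. All comparisons against control share the same 3 control libraries. At 3 h 17 genes rose and 7 fell (against 13.5% and 7.94% of genes tested), with a median of 0.20 against -0.03 over all genes, and all 17 were also called risen at 6 h. In 23 genes all libraries at 3 h lay above all controls (23.4% of genes tested) and in 16 below (24.3%). At 1.5 h edgeR called 0 genes risen and 0 fallen (against 1.95% and 1.37% of genes tested). At an unadjusted p below 0.05, 3 of the 91 were up and 7 down, where 1076 and 933 of all 9491 genes tested were. DESeq2 called 0 risen and 1 fallen (against 5.46% and 2.98% of all genes). The fallen gene was Nvl, an ATPase of pre-60S particles named after its value was seen. At that time 8 genes lay above all controls in every library (12.9% of genes tested) and 14 below (15.1%), and without replicate 3 at 1.5 h 3 rose and 3 fell, against 13.4% and 16.7% of all genes. Without the 3 libraries that stood apart, 18 rose and 16 fell at 1.5 h (against 28.7% and 30.5% of genes tested), and 44 rose and 24 fell at 3 h (against 31.4% and 39.6%). The count of risen genes at 3 h was 6 without any 1 of the 3 controls or of replicates 1 and 2 at 3 h (against 6.13% to 7.15% of all genes), and 34 without replicate 3 (against 19.5%). The fallen count lay between 1, without replicate 2 at 3 h, and 4, without control replicate 3 (against 2.72% to 3.61% of all genes over these 5 fits), and was 10 without replicate 3 at 3 h (against 19.2%).

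The zero point of these changes depends on how libraries are scaled. Scaled to library size alone, the median of the set was -0.13 at 3 h and 0.26 at 6 h, and that of all genes was -0.34 and -0.24. The set stood above all genes by 0.20 at 3 h and 0.50 at 6 h under that scaling, and by 0.23 and 0.52 with TMM. Counts moved with it. With library size scaling 6 genes rose and 20 fell at 3 h, and 28 rose and 9 fell at 6 h, where 6.85% and 19.9% of all genes rose and fell at 3 h and 12% and 19% at 6 h. At 1.5 h it gave 0 risen and 3 fallen genes, against 1.74% and 2.28% of all genes. Directions below are relative to TMM, under which the median of all genes stayed near 0.

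**Figure D1:**
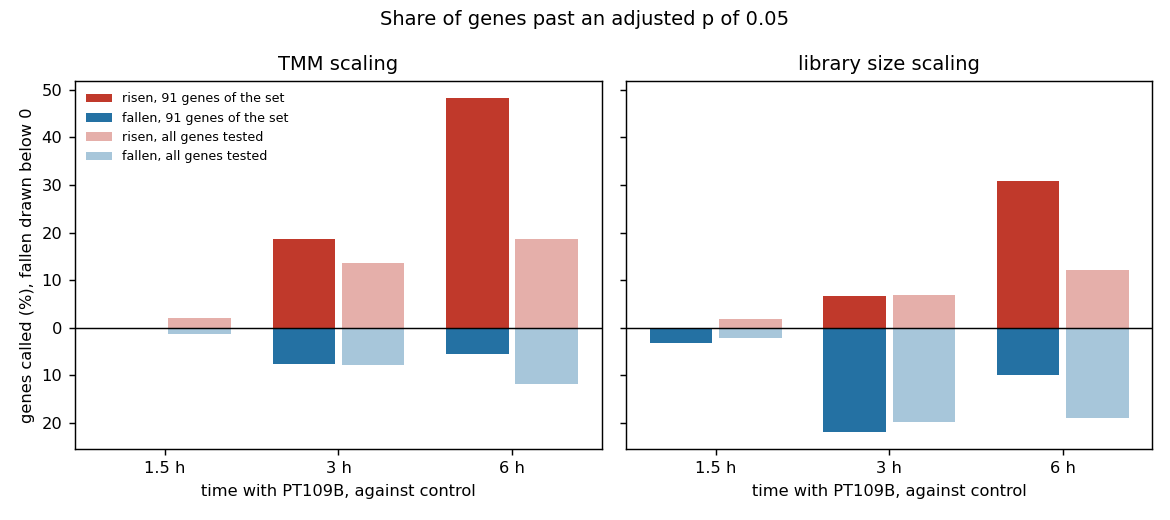
Share of genes past an adjusted p of 0.05 at each time against control (vertical axis in percent, risen above 0 and fallen below), for the 91 genes of the set (dark) and all 9491 genes tested (pale), with TMM scaling on the left and library size scaling on the right. At 6 h 48.4% of the set rose with TMM, against 18.7% of all genes, and the fallen share at 3 h was larger with library size scaling, where 20 genes of the set fell.

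Libraries of a group did not move to the same extent. The median log2 difference of the 91 genes from the control mean was 0.05, 0.02 and -0.07 in the controls, 0.06, 0.03 and -0.09 at 1.5 h, 0.33, 0.27 and -0.03 at 3 h, and 0.34, 0.60 and 0.60 at 6 h. Replicate 3 at 3 h was thus level with controls, while replicate 1 at 6 h was raised about as far as the pair at 3 h. Counting genes above the highest control gave 38, 35 and 15 at 1.5 h, 51, 52 and 29 at 3 h, and 60, 64 and 62 at 6 h, where between 30% and 42.5% of all genes were above it.

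**Figure D2:**
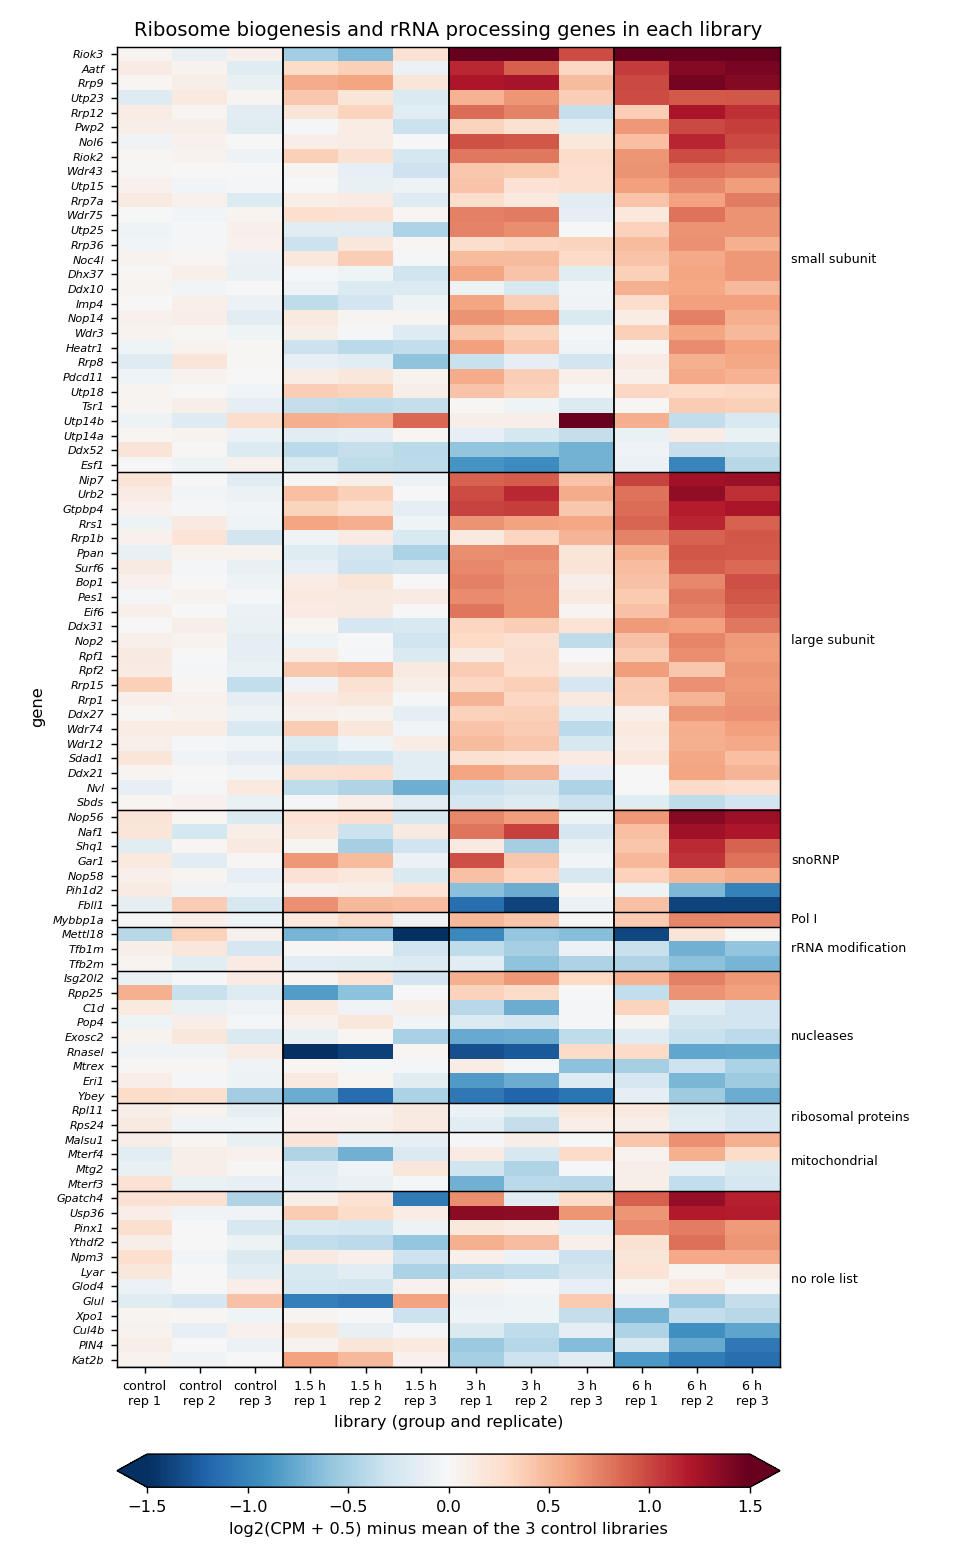
Heat map of the genes of the set, without 1 that is not reported here (rows, grouped by role and ordered by the change at 6 h) in the 12 libraries (columns), coloured by log2(CPM + 0.5) minus the mean of the 3 controls, with colours ending at 1.5 in either direction. Red fills most of the small and large subunit rows in the 6 h columns and in replicates 1 and 2 at 3 h, replicate 3 at 3 h is paler, and the nuclease, ribosomal protein and mitochondrial rows stay mostly pale or blue.

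Genes of the set that move together can be looked at through their promoters. RefSeq promoter windows on the GRCr8 build, from 250 bases before to 50 after the start, were found by symbol for 74 of the 91 genes. Both strands were searched for the E-box CACGTG, a site known to be bound by Myc with Max and by other factors, and for CGGAAG, the core of sites bound by ETS family factors. Neither motif can overlap the other, though CGGAAG can overlap its own reverse complement CTTCCG. The E-box was in 20 of 74 windows of the set (27.0%), 12 of 38 of the genes risen at 6 h (31.6%), 8 of 36 of the other genes of the set (22.2%), 9.0% of 7480 tested genes and 6.7% of 27457 windows of the table. CGGAAG was in 43 of 74 (58.1%), 25 of 38 (65.8%), 18 of 36, 26.8% and 17.4% of the same sets, whose median GC contents were 57.7%, 57.2%, 58.3%, 61.3% and 52.3%. Such matches describe the letters of these windows and say nothing about binding. The windows of 4 genes risen at 6 h follow, chosen after their values were seen to show 3 with an E-box and 1 without. Sequence is in lower case with matches to either motif or its reverse complement in capitals. Aatf (chr10:69889585-69889884, minus strand) has its E-box at -173 from the start and 1 CGGAAG, Riok2 (chr1:66775965-66776264, plus strand) has an E-box at -122, Pes1 (chr14:83074096-83074395, plus strand) has one at -50, and Nip7 (chr19:51872056-51872355, plus strand) has no E-box and 1 CTTCCG.
Aatf: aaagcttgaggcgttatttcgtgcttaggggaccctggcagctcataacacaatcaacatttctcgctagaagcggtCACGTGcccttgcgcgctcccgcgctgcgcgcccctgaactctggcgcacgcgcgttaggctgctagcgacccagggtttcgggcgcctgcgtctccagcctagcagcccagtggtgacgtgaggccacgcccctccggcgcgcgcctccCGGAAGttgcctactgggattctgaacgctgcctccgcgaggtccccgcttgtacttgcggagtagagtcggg
Riok2: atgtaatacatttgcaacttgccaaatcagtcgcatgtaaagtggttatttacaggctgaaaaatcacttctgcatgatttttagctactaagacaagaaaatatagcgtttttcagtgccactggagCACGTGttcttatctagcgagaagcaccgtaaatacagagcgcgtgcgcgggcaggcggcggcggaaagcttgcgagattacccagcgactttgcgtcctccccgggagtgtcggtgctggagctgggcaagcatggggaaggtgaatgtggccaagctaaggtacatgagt
Pes1: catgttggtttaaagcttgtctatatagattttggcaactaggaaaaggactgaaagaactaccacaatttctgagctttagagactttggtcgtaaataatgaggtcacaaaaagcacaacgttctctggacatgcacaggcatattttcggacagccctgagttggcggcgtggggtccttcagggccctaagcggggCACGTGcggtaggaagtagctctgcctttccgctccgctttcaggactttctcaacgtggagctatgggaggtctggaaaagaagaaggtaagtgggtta
Nip7: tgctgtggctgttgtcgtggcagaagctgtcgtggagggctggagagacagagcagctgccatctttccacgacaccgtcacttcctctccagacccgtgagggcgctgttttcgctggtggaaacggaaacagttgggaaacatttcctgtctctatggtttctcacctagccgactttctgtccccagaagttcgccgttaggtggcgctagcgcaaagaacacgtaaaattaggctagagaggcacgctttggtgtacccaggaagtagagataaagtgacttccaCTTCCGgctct

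For the counts by role that follow, the shares of all genes risen and fallen were 18.7% and 11.8% at 6 h and 13.5% and 7.94% at 3 h. With library size scaling they were 12% and 19% at 6 h and 6.85% and 19.9% at 3 h, and without the 3 libraries that stood apart 33.3% and 41.8% at 6 h and 31.4% and 39.6% at 3 h. Among factors of the large subunit, 16 of 23 genes (69.6%) rose at 6 h and none fell, with a median log2 fold change of 0.61, and at 3 h 7 rose and none fell (0.32). Scaled to library size, 12 rose and 1 fell at 6 h, and 3 rose and 2 fell at 3 h. Without the 3 libraries that stood apart, 21 rose and 1 fell at 6 h, and 16 rose and 2 fell at 3 h. Nip7 (ENSRNOG00000020391), an early pre-60S factor needed for pre-rRNA processing, had 33.9, 29.6 and 26.1 CPM in controls, 30.1, 31.4 and 28.0 at 1.5 h, 55.3, 56.3 and 40.2 at 3 h, and 60.4, 71.5 and 73.8 at 6 h. Every library at 3 and 6 h lay above every control and those at 1.5 h lay among them, with replicate 3 lowest at 3 h and replicate 1 lowest at 6 h. Its log2 fold changes were 0.76 ± 0.16 at 3 h (adjusted p = 0.00808, edgeR) and 1.20 ± 0.16 at 6 h (adjusted p = 0.000485, edgeR), and both calls held under all 17 alternatives.

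Gtpbp4 (ENSRNOG00000016217), a GTPase of pre-60S particles, had 98.9, 93.3 and 91.5 CPM in controls, 119, 112 and 86.4 at 1.5 h, 191, 194 and 125 at 3 h, and 169, 215 and 222 at 6 h. All 6 libraries at 3 and 6 h were above the controls, for log2 fold changes of 0.85 ± 0.19 and 1.10 ± 0.19 (edgeR adjusted p = 0.0114 and 0.00192). Urb2, whose yeast counterpart acts in early 60S assembly, was lower in level and had 33.0, 29.3 and 28.4 CPM in controls, 41.4, 38.9 and 30.4 at 1.5 h, 60.2, 66.4 and 44.7 at 3 h, and 53.5, 76.6 and 65.1 at 6 h. It rose by 0.92 ± 0.19 at 3 h and 1.10 ± 0.19 at 6 h on the log2 scale, without overlap with controls at either time, and both genes kept these calls under all 17 alternatives.

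Rrs1, which with Rpf2 helps to bring the 5S rRNA particle into the pre-60S, had 34.6, 40.3 and 35.0 CPM in controls, 55.1, 53.7 and 34.8 at 1.5 h, 58.7, 55.8 and 55.0 at 3 h, and 67.4, 81.2 and 67.7 at 6 h. Replicates 1 and 2 at 1.5 h were already above the controls while replicate 3 was among them, and all later libraries were above them. The change of 0.62 ± 0.17 at 3 h was called under 8 of the 17 alternatives, and that of 0.97 ± 0.17 at 6 h (edgeR adjusted p = 0.00203) under all of them.

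Pes1, Bop1 and Wdr12 form the PeBoW complex, which is needed for maturation of the 28S and 5.8S rRNAs. Pes1 had 188, 248 and 274 CPM at 6 h, against 141, 149 and 141 CPM in controls. Bop1 had 124, 151 and 179 CPM at 6 h, against 95.5, 91.5 and 86.8 CPM in controls. Both were above all controls in every library at 6 h, and rose by 0.72 ± 0.17 and 0.73 ± 0.18 on the log2 scale (edgeR adjusted p = 0.00921 and 0.0123). Both calls were lost without replicate 3 at 6 h and kept under the other 16 alternatives. Wdr12 had 60.5, 81.4 and 83.2 CPM at 6 h, against 59.1, 54.8 and 54.6 CPM in controls, and its change of 0.42 ± 0.19 was not called (edgeR adjusted p = 0.117).

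The other large subunit factors differed in how far they moved. Ppan and Surf6, both nucleolar factors of the pre-60S, changed by 0.81 ± 0.17 and 0.75 ± 0.16 at 6 h and were called under all 17 alternatives. At 3 h their changes of 0.55 ± 0.17 and 0.54 ± 0.16 were called under 6 of the 17. Nop2, a methyltransferase of 28S rRNA, had 114, 139 and 131 CPM at 6 h, against 88.2, 87.3 and 76.5 CPM in controls, and rose by 0.61 ± 0.17, a call kept under 12 of the 17 alternatives. The helicase Ddx21, among the most abundant of these genes, was at 375 ± 79.7 CPM at 6 h and 287 ± 8.48 CPM in controls (SD, n = 3 each) and was not called (0.39 ± 0.21). Replicate 1 at 6 h lay among its controls and replicates 2 and 3 lay above them. Sbds, which releases Eif6 from the finished large subunit, had a log2 fold change of -0.28 ± 0.10 and was not called (edgeR adjusted p = 0.0595).

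In the small subunit group 18 of 29 genes (62.1%, against 18.7% of all genes) rose at 6 h and none fell, with a median of 0.56, and at 3 h 8 rose and 2 fell (0.35). With library size scaling 9 rose and 1 fell at 6 h, and 2 rose and 6 fell at 3 h. Without the 3 libraries that stood apart, 24 rose and 3 fell at 6 h, and 20 rose and 3 fell at 3 h. Riok3 (ENSRNOG00000023376), an atypical kinase of the RIO family that associates with pre-40S particles, showed the largest change of the set at 6 h. It had 512, 461 and 527 CPM in controls, 349, 314 and 578 at 1.5 h, 2108, 1948 and 987 at 3 h, and 1502, 2510.3 and 2244 at 6 h. All libraries at 3 and 6 h were above the controls, replicate 3 at 3 h and replicate 1 at 6 h were the lowest of their groups, and replicates 1 and 2 at 1.5 h were below the controls. It rose by 1.75 ± 0.33 at 3 h (edgeR adjusted p = 0.00491) and by 2.06 ± 0.33 at 6 h (adjusted p = 0.00137), under all 17 alternatives each.

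Riok2, a second RIO kinase of pre-40S maturation, moved less. It had 45.5, 46.0 and 42.0 CPM in controls, 57.3, 52.1 and 37.0 at 1.5 h, 77.3, 77.2 and 53.7 at 3 h, and 70.8, 87.8 and 84.5 at 6 h. At 3 h its rise of 0.64 ± 0.19 was called under 8 of the 17 alternatives, and at 6 h that of 0.87 ± 0.19 (edgeR adjusted p = 0.0062) under all of them. Aatf, a nucleolar protein needed for early 40S assembly, had 29.9, 28.4 and 24.0 CPM in controls, 33.1, 35.3 and 25.7 at 1.5 h, 60.4, 51.1 and 33.9 at 3 h, and 57.3, 71.8 and 73.9 at 6 h. Each library at 3 and 6 h was above every control, with replicate 3 at 3 h the nearest to them, and the log2 fold change was 1.30 ± 0.21 at 6 h (edgeR adjusted p = 0.00153), called under all 17 alternatives. Its change of 0.82 ± 0.21 at 3 h was called under 10 of the 17 alternatives.

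Several components of the processome itself rose. Rrp9, the protein specific to the U3 snoRNP, had 38.4, 40.3 and 34.9 CPM in controls, 55.7, 57.3 and 42.9 at 1.5 h, 88.3, 89.6 and 52.6 at 3 h, and 75.7, 103 and 99.2 at 6 h. All libraries at 1.5 h were above the controls too, though the change of 0.46 ± 0.21 at 1.5 h was not called (edgeR adjusted p = 0.24). The changes of 1.02 ± 0.21 at 3 h and 1.29 ± 0.21 at 6 h were called under all 17 alternatives.

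Utp15 and Wdr43 belong to the part of the processome that joins the precursor rRNA first. Utp15 had 85.9, 80.1 and 80.5 CPM in controls, 82.0, 76.1 and 77.6 at 1.5 h, 110.3, 95.4 and 97.9 at 3 h, and 126, 136 and 127 at 6 h. Wdr43 had 105, 102 and 102 CPM in controls, 106, 94.6 and 83.0 at 1.5 h, 136, 135 and 123 at 3 h, and 164, 181 and 175 at 6 h. Their libraries agreed closely among controls and at 6 h, and less so for Wdr43 at 1.5 h. At 6 h both genes rose in all 3 libraries, by 0.66 ± 0.09 and 0.75 ± 0.11 on the log2 scale (edgeR adjusted p = 0.000691 and 0.000682). At 3 h the smaller changes of 0.30 ± 0.09 and 0.35 ± 0.11 were called under 4 and 7 of the 17 alternatives, and that of Utp15 came to -0.01 with library size scaling. Heatr1, another early component, had 151 ± 35.5 CPM at 6 h and 109 ± 4.52 CPM in controls (SD, n = 3 each), with replicate 1 at 6 h among the controls, and was not called (0.48 ± 0.19).

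Nol6 rose by 0.73 ± 0.22 at 3 h and 0.89 ± 0.22 at 6 h, called under 7 and 16 of the 17 alternatives, with the later call lost without replicate 2 at 6 h. Utp23, which in yeast acts on the snR30 snoRNP, had 24.7, 23.8 and 24.1 CPM at 6 h, against 10.8, 13.8 and 12.7 CPM in controls. Its 3 libraries at 6 h were all above the controls, and the change of 0.96 ± 0.18 was called under all 17 alternatives. Pdcd11, the counterpart of yeast Rrp5 and a factor for both subunits, had a change of 0.41 ± 0.16 and Tsr1, a late pre-40S factor, one of 0.26 ± 0.12, and neither was called.

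Against this direction, Esf1 and Ddx52 fell at 3 h. Both have yeast counterparts needed for making 18S rRNA. Esf1 (ENSRNOG00000004777) had 70.4, 67.6 and 73.4 CPM in controls, 60.6, 54.2 and 53.5 at 1.5 h, 37.9, 36.4 and 43.0 at 3 h, and 66.3, 35.2 and 52.6 at 6 h. All libraries at 1.5, 3 and 6 h were below the controls, with the lowest mean at 3 h. At 6 h replicate 1 was close to the controls while replicate 2 was the lowest of all libraries. Its change of -0.85 ± 0.19 at 3 h (edgeR adjusted p = 0.0121) was called under 16 of the 17 alternatives and lost without replicate 2 at 3 h, and the change of -0.46 ± 0.19 at 6 h was not called. Ddx52 had 60.9, 54.0 and 46.0 CPM in controls, 40.2, 41.9 and 40.2 at 1.5 h, 35.1, 34.8 and 32.4 at 3 h, and 51.2, 42.0 and 42.3 at 6 h, and its change of -0.65 ± 0.13 at 3 h was called under all 17 alternatives.

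**Figure D3:**
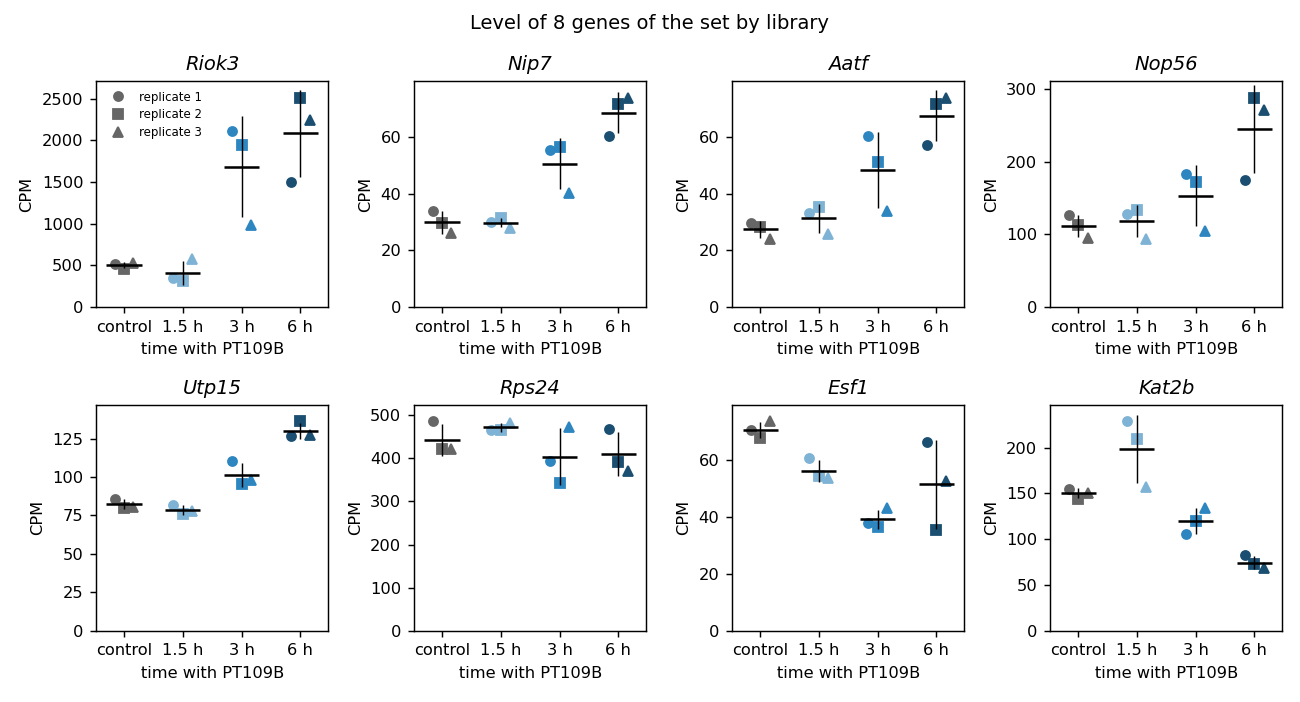
Levels of 8 genes of the set in CPM (vertical axes, from 0) in each library of the control, 1.5 h, 3 h and 6 h groups; points are libraries with a marker shape per replicate, horizontal lines are means and vertical lines ± SD (n = 3). Riok3, Nip7, Aatf, Nop56 and Utp15 have their highest mean at 6 h, and Rps24 overlaps between groups. Esf1 has its lowest mean at 3 h, and Kat2b falls below control at 3 h and further at 6 h.

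Proteins of the snoRNPs rose in part. At 6 h 3 of 7 genes rose and none fell, where 18.7% and 11.8% of all genes did. With DESeq2 5 rose (against 21.8% of all genes), with library size scaling 2 rose, and without the 3 libraries apart 5 rose and 2 fell. At 3 h edgeR and DESeq2 both called 0 and 0 had an unadjusted p below 0.05, while 4 rose and 2 fell without the 3 libraries apart. Nop56, a core protein of the box C/D particles that guide ribose methylation, had 127, 113 and 95.8 CPM in controls, 128, 134 and 93.8 at 1.5 h, 184, 172 and 105 at 3 h, and 175, 288 and 272 at 6 h. Replicates 1 and 2 at 3 h and all libraries at 6 h were above the controls, with replicate 1 at 6 h well below the other pair. It rose by 1.13 ± 0.25 at 6 h (edgeR adjusted p = 0.00711), under all 17 alternatives. Its partner Nop58 was at 155 ± 11.9 CPM at 6 h and 112 ± 8.22 CPM in controls (SD, n = 3 each), without overlap, but its change of 0.47 ± 0.18 was not called (adjusted p = 0.0647).

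Naf1 and Shq1 help to assemble the box H/ACA particles, which guide the making of pseudouridine. Naf1 had 36.2, 64.1 and 61.6 CPM at 6 h, against 29.96, 21.8 and 28.0 CPM in controls. Shq1 had 13.2, 21.8 and 18.4 CPM at 6 h, against 8.65, 10.0 and 10.7 CPM in controls. All libraries at 6 h were above the controls, and the rises of 1.02 ± 0.32 and 0.86 ± 0.25 were called under 11 and 9 of the 17 alternatives. Gar1, a core protein of the same particles, had a change of 0.85 ± 0.30 at 6 h, just outside the call (edgeR adjusted p = 0.0508).

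The set held 1 gene linked to RNA polymerase I. Mybbp1a, a nucleolar protein that binds transcription factors such as Myb, had 320.3, 408 and 404 CPM at 6 h, against 244, 259 and 234 CPM in controls, and rose by 0.62 ± 0.16 on the log2 scale (edgeR adjusted p = 0.0141, called under 13 of the 17 alternatives). Of 3 genes grouped with rRNA modification, Tfb2m fell by 0.60 at 6 h, with 21.4, 19.0 and 17.8 CPM at 6 h and 30.2, 26.1 and 32.0 CPM in controls. It is known as a transcription factor of mitochondria that is related to rRNA methyltransferases, and the call was lost without control replicate 3. Tfb1m, which methylates mitochondrial 12S rRNA, had a change of -0.57 ± 0.20, not called (edgeR adjusted p = 0.0527), and the methyltransferase Mettl18 one of -0.30 ± 0.46, also not called.

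In the nuclease and exosome group the median change was below 0, at -0.38 at 3 h and -0.32 at 6 h. Of 9 such genes 1 rose (11.1%) and 3 fell at 3 h, where 13.5% and 7.94% of all genes did, and at 6 h 1 rose and none fell, where 18.7% and 11.8% did. Without the 3 libraries that stood apart, 1 rose and 6 fell at 3 h, and 1 rose and 7 fell at 6 h (against 41.8% of all genes fallen). With library size scaling 4 fell and none rose at 3 h, and 1 rose and 1 fell at 6 h. The riser was Isg20l2, an exonuclease that trims the 5.8S precursor, which had 30.9, 32.8 and 36.2 CPM in controls, 34.1, 38.4 and 27.2 at 1.5 h, 48.3, 52.2 and 41.0 at 3 h, and 48.0, 56.2 and 52.2 at 6 h. Libraries at 3 and 6 h were above every control, and the rise of 0.65 ± 0.15 at 6 h was called under all 17 alternatives, against 8 for that of 0.50 ± 0.15 at 3 h.

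The fallers at 3 h were Exosc2, a subunit of the exosome cap, Eri1, an exonuclease that trims 5.8S rRNA and histone mRNA, and Ybey, an endonuclease. Exosc2 had 20.8, 21.0 and 27.0 CPM at 3 h, against 36.7, 39.8 and 30.5 CPM in controls. Eri1 had 34.2, 36.8 and 54.4 CPM at 3 h, against 66.3, 61.3 and 58.9 CPM in controls. For both, replicate 3 at 3 h was the nearest to the controls, and the changes of -0.64 ± 0.17 and -0.57 ± 0.18 were called under 13 and 10 of the 17 alternatives. Ybey, at 3.60 ± 0.172 CPM at 3 h and 8.69 ± 2.57 CPM in controls (SD, n = 3 each), rested on low counts (change -1.27 ± 0.31, called under 13 of the 17 alternatives). Mtrex, the exosome's helicase, and Pop4, a subunit of RNase P and RNase MRP, had changes of -0.42 ± 0.16 and -0.17 ± 0.13 at 6 h, neither called.

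Of the 2 ribosomal proteins of the set, edgeR over all 12 libraries and DESeq2 called 0 against control at any time, and 0 had an unadjusted p below 0.05. Both fell at 3 h and at 6 h without the 3 libraries that stood apart, with medians of -0.26 and -0.31, where 39.6% and 41.8% of all genes fell. Rps24 had 485, 421 and 422 CPM in controls, 467, 465 and 483 at 1.5 h, 395, 344 and 473 at 3 h, and 468, 391 and 371 at 6 h. Rpl11, which also binds the p53 regulator Mdm2, had 485, 472 and 413 CPM in controls, 477, 471 and 500.0 at 1.5 h, 429.6, 402 and 509 at 3 h, and 505, 402 and 382 at 6 h. Groups overlapped for both, and the changes at 6 h were -0.11 ± 0.14 and -0.09 ± 0.14. Ribosomal protein genes have many near-identical pseudogene copies, so these levels are uncertain, as are those of Utp14b, a close copy of Utp14a.

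Of 4 genes for mitochondrial ribosome assembly, Malsu1, a factor of the large mitochondrial subunit, rose at 6 h, with 22.4, 27.1 and 24.5 CPM at 6 h and 17.8, 16.9 and 15.5 CPM in controls. All 3 libraries were above the controls, and the change of 0.56 ± 0.15 was called under 11 of the 17 alternatives. Mterf3, a regulator of mitochondrial transcription and ribosome assembly, fell by 0.53 at 3 h (called under 9 of the 17 alternatives), with 12.5, 15.6 and 15.6 CPM at 3 h and 24.3, 19.5 and 19.2 CPM in controls. Mterf4 and the GTPase Mtg2, both factors of the mitochondrial large subunit, had changes of 0.31 ± 0.22 and -0.07 ± 0.16 at 6 h and were not called. By cellular place, 36 of the 66 genes with a nucleolar GO component (54.5%) rose at 6 h and 1 fell (median 0.57). Of the other 25, 8 (32%) rose and 4 (16%) fell (median -0.11), where 18.7% and 11.8% of all genes rose and fell, and the difference between the 2 groups was not tested.

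**Figure D4:**
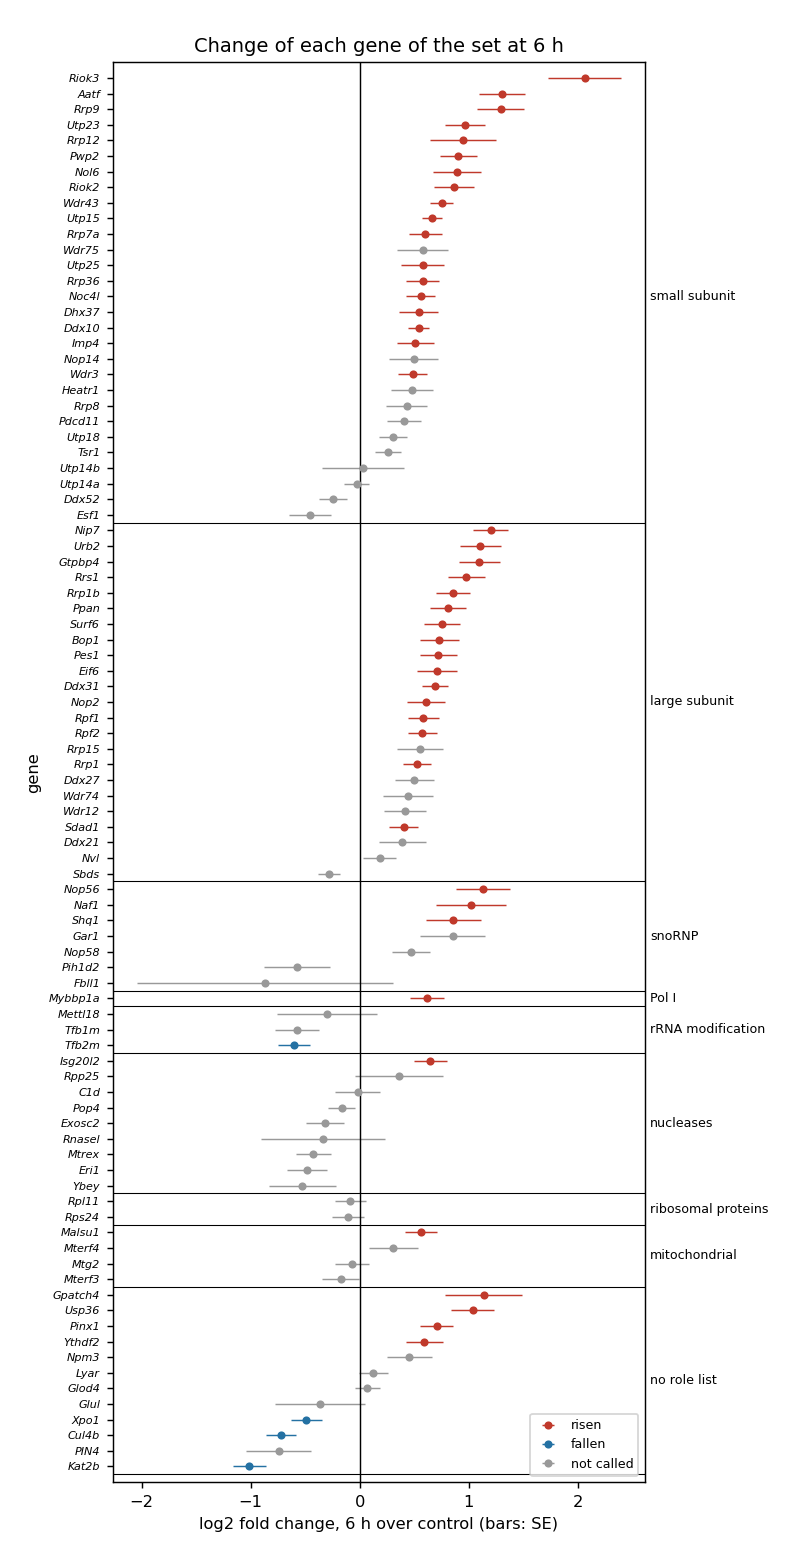
Log2 fold change of each gene of the set, without 1 that is not reported here, at 6 h over control (horizontal axis) with SE bars, grouped by role, with risen genes in red, fallen genes in blue and uncalled genes in grey. All called genes of the small subunit, large subunit and snoRNP groups lie right of 0, and the fallen genes shown lie in the rRNA modification group or outside the role lists.

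Among the 13 genes outside the role lists, 4 rose and 4 fell at 6 h (against 18.7% and 11.8% of all genes). Usp36 (ENSRNOG00000028255), a nucleolar deubiquitinase, had 49.0, 44.1 and 44.1 CPM in controls, 59.7, 55.4 and 49.4 at 1.5 h, 118, 117 and 72.6 at 3 h, and 72.8, 105 and 104 at 6 h. All libraries at 3 and 6 h were above the controls, and it rose by 1.16 ± 0.20 at 3 h and 1.04 ± 0.20 at 6 h (edgeR adjusted p = 0.00303 and 0.00345), under all 17 alternatives. Gpatch4, a nucleolar G-patch protein, had 22.3, 29.97 and 27.0 CPM at 6 h, against 13.8, 13.8 and 8.45 CPM in controls, a rise of 1.13 ± 0.35 called under 9 of the 17 alternatives.

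The genes that fell at 6 h carry broader functions. Kat2b (ENSRNOG00000011871), a histone acetyltransferase, had 155, 144 and 151 CPM in controls, 228, 209.7 and 157 at 1.5 h, 106, 120.3 and 134 at 3 h, and 82.4, 72.4 and 68.2 at 6 h. It stood above the controls in all libraries at 1.5 h and below them at 3 and 6 h, with no overlap. The change was -1.01 ± 0.15 at 6 h (edgeR adjusted p = 0.000857), called under all 17 alternatives, and -0.32 ± 0.15 at 3 h, not called. Cul4b, a scaffold of ubiquitin ligases, fell in all 3 libraries to 112, 81.7 and 89.4 CPM at 6 h, against 161, 143 and 162 CPM in controls, a change of -0.72 ± 0.14 that was also called under all 17. Xpo1, the exporter that carries pre-ribosomal particles out of the nucleus, had 229, 291 and 281 CPM at 6 h, against 384, 382 and 358 CPM in controls, and fell by 0.49 (called under 13 of the 17 alternatives).

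Glul was not called at any time, and its libraries differed widely. It had 2799.5, 2665 and 4337 CPM in controls, 1567, 1517 and 4849 at 1.5 h, 2986, 3052 and 4189 at 3 h, and 2927, 2187 and 2495 at 6 h. At 1.5 h replicates 1 and 2 were below every control while replicate 3 was above every control. Those replicates 1 and 2 also had the lowest summed levels of 20 microglia markers, 471.5 and 461.5 CPM, against 5165.0 CPM in replicate 3 and 3936.3 to 4985.3 CPM in controls. Without replicate 3 at 1.5 h the change of Glul was -1.08 (edgeR adjusted p = 0.0116). Glod4, the most abundant of the other uncalled genes without a role list, had a change of 0.07 ± 0.11 at 6 h.

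More genes of the set, as of all genes tested, were called between 1.5 and 3 h than between 3 and 6 h. The median of the set stood above that of all genes by 0.20 in the first interval and 0.27 in the second. With library size scaling the risen count was instead 8 in the first and 14 in the second. At 3 h over 1.5 h 16 genes rose and 3 fell (against 12.1% and 8.23% of genes tested), with a median of 0.23 against 0.03 over all genes. Scaled to library size 8 rose and 8 fell (against 5.93% and 15.6% of all genes), and without the 3 libraries apart 40 rose and 19 fell (against 35.2% and 34.7% of all genes). The risen count was 7 without replicate 1 at 1.5 h, 4 without replicate 2 at 1.5 h and 3 without replicate 1 or 2 at 3 h (against 2.78% to 3.27% of all genes), and 27 without replicate 3 at 3 h (against 16.5%). The fallen count was 0 without replicate 1 or 2 at 1.5 h and 1 without replicate 1 or 2 at 3 h (against 1.28% to 2.36% of all genes), 5 without replicate 3 at 1.5 h (against 17.3%) and 9 without replicate 3 at 3 h (against 19.8%). Riok3 had the largest rise, 2.02 ± 0.33 (edgeR adjusted p = 0.00504), followed by Usp36 with 0.90 ± 0.20 and Ppan with 0.87 ± 0.17. Ppan had 62.5, 62.8 and 43.4 CPM at 3 h, against 33.7, 31.3 and 27.6 CPM at 1.5 h, without overlap. Kat2b fell by 0.72 and Eri1 by 0.58. In a fit to these groups alone none of these genes was called.

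From 3 to 6 h 3 genes rose and 1 fell (against 2.33% and 1.72% of genes tested), while the median stood at 0.24 against -0.03 over all genes and 76 of 91 fold changes were above 0. With DESeq2 12 rose and 2 fell (against 5.1% and 3.91% of all genes), and with library size scaling 14 rose and none fell (against 4.02% and 1.39%). Without the 3 libraries apart 25 rose and 5 fell (against 15.4% and 18.7% of all genes). The risers, named after their values were seen, were Pwp2, a processome scaffold, with 0.76 ± 0.17, Pinx1, a nucleolar telomerase inhibitor, with 0.67 ± 0.15, and Ddx10, a DEAD-box helicase, with 0.65 ± 0.10. Ddx10 had 59.5, 61.2 and 57.6 CPM at 6 h, against 38.6, 34.8 and 39.9 CPM at 3 h, and controls had 42.0, 39.7 and 41.0 CPM. Kat2b fell further, by 0.69. All 4 calls were lost without any 1 of replicates 1 and 2 at 3 h or 2 and 3 at 6 h, when 0.157% to 0.293% of all genes rose. Without replicate 3 at 3 h 3 rose and 2 fell (against 4.05% and 4.2% of all genes), and without replicate 1 at 6 h 5 rose and 2 fell (against 2.72% and 1.4%).

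Genes of the same pathway that lacked the GO terms were counted in the same way. Of 110 tested genes on 8 lists of ribosome assembly roles, none of them in the set, 48 rose and 6 fell at 6 h (against 18.7% and 11.8% of all genes), with a median of 0.50. At 3 h 15 rose and 6 fell with a median of 0.23 (against 13.5% and 7.94%), and at 1.5 h 0 rose and 1 fell (against 1.95% and 1.37%). Scaled to library size these were 33 and 11 at 6 h (against 12% and 19% of all genes) and 4 and 25 at 3 h (against 6.85% and 19.9%). They were 69 and 19 at 6 h (against 33.3% and 41.8%) and 46 and 29 at 3 h (against 31.4% and 39.6%) without the 3 libraries apart. Large subunit factors contributed most, with 19 of 25 risen and none fallen at 6 h. Nifk, a nucleolar partner of Ki-67 involved in pre-60S processing, had 65.8, 63.6 and 54.1 CPM in controls, 63.4, 64.8 and 56.7 at 1.5 h, 95.7, 92.4 and 72.2 at 3 h, and 114, 131 and 128 at 6 h. It was above all controls at 3 and 6 h and rose by 1.02 ± 0.13 at 6 h (edgeR adjusted p = 0.000464).

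For the lists that follow, 18.7% of all genes rose and 11.8% fell at 6 h, and 13.5% rose and 7.94% fell at 3 h. With library size scaling these shares were 12% and 19% at 6 h and 6.85% and 19.9% at 3 h. Without the libraries apart they were 33.3% and 41.8% at 6 h, 31.4% and 39.6% at 3 h, and 28.7% and 30.5% at 1.5 h. Of 13 genes for RNA polymerase I and its factors 6 rose and none fell at 6 h, and 2 rose at 3 h. Scaled to library size 4 rose at 6 h and 0 at 3 h, and without the 3 libraries apart 9 rose and 1 fell at 6 h and 7 rose and 3 fell at 3 h. Polr1e, a subunit of the polymerase, had 23.3, 20.0 and 18.7 CPM in controls, 21.3, 27.2 and 22.5 at 1.5 h, 37.3, 33.7 and 30.4 at 3 h, and 41.0, 50.5 and 50.9 at 6 h. Its changes of 0.71 ± 0.15 at 3 h and 1.20 ± 0.15 at 6 h were called (edgeR adjusted p = 0.00946 and 0.000412). Ubtf, the factor that opens rDNA for transcription, was at 302 ± 46.4 CPM at 6 h and 209.8 ± 4.46 CPM in controls (SD, n = 3 each) and rose by 0.53 ± 0.13. Of 12 further tested ribosomal protein genes edgeR over all 12 libraries called 0 against control at any time. Their median log2 fold changes were -0.02, 0.29 and 0.29 at 1.5, 3 and 6 h, against -0.01, -0.03 and -0.02 over all genes. At these times 2, 4 and 1 were up at an unadjusted p below 0.05, and 0, 2 and 1 were risen with DESeq2. Of all 9491 genes tested, 1076, 2110 and 2381 were up at an unadjusted p below 0.05 at these times. With DESeq2 5.46%, 17.8% and 21.8% of all genes rose. Leaving out the 3 libraries apart, 1 rose and 3 fell at 1.5 h, 4 rose and 3 fell at 3 h, and 5 rose and 3 fell at 6 h, and with library size scaling 1 fell at 6 h. Only 15 of 81 listed ribosomal protein genes were in the table, and the rest were not analysed here. Cytosolic aminoacyl-tRNA synthetases, which load amino acids onto tRNA, had 3 of 17 risen at 3 h, with a median of 0.85. At that time 15 were up and 0 down at an unadjusted p below 0.05, where 2110 and 1537 of 9491 genes tested were. With DESeq2 12 were risen (against 17.8% of all genes). At 6 h 0 of 17 were called, with a median of 0.64. There 6 were up at an unadjusted p below 0.05 (against 2381 of 9491 genes tested), and 4 were risen with DESeq2 (against 21.8% of all genes). When the 3 libraries apart were left out, 15 of 17 rose at 3 h (median 1.06), and 15 rose and 2 fell at 6 h (median 0.69), while with library size scaling edgeR called 0 at both times. Translation factors had 3 risen and 2 fallen of 18 at either time (against 13.5% and 7.94% of all genes at 3 h, 18.7% and 11.8% at 6 h). Without the 3 libraries apart they had 9 and 5 at 3 h and 7 and 3 at 6 h. With library size scaling they had 1 and 6 at 3 h and 2 and 4 at 6 h. Among 20 genes for RNA polymerase III, which makes 5S rRNA and tRNA, 7 rose and 4 fell at 6 h (against 18.7% and 11.8% of all genes), 3 and 4 with library size scaling, and 8 and 8 without the 3 libraries apart.

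In the Myc network genes were called at every time. Myc, a transcription factor known to act on ribosome biogenesis genes, had 64.1, 62.8 and 63.2 CPM in controls, 140.2, 142 and 121 at 1.5 h, 132, 141 and 117 at 3 h, and 152, 171 and 163 at 6 h. All 9 treated libraries were above all controls, including the 3 that stood apart, and the change at 1.5 h was 1.09 ± 0.11 (edgeR adjusted p = 0.000309). Mnt, a repressor that competes with Myc for Max, had 47.3, 44.1 and 42.9 CPM in controls, 65.5, 67.9 and 68.5 at 1.5 h, 147, 130.2 and 103 at 3 h, and 77.4, 94.8 and 86.6 at 6 h and rose by 0.59 ± 0.14 at 1.5 h. Of 12 tested genes of the network 2 rose at 1.5 h, 5 rose and 1 fell at 3 h, and 4 rose and 1 fell at 6 h. Over all genes 1.95% rose at 1.5 h, 13.5% rose and 7.94% fell at 3 h, and 18.7% rose and 11.8% fell at 6 h. The median log2 fold change of the network at 6 h was -0.06. Scaled to library size 2 rose and 3 fell at 3 h (against 6.85% and 19.9% of all genes) and 3 rose and 2 fell at 6 h (against 12% and 19%). Without the 3 libraries apart 6 rose and 3 fell at 3 h (against 31.4% and 39.6%) and 5 rose and 4 fell at 6 h (against 33.3% and 41.8%). The fallen gene was Mycl, with 1.71, 5.85 and 6.06 CPM at 6 h, against 9.07, 12.3 and 11.4 CPM in controls.

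Other transcripts moved with the split between libraries. The summed level of 25 mitosis genes was 1845.8 to 2511.3 CPM in controls and 1762.2 to 2091.4 CPM at 1.5 h. At 3 h it was 154.9 and 173.8 CPM in the pair and 1425.9 CPM in the library apart, and at 6 h 135.0 and 158.2 CPM in the pair and 1374.0 CPM in the library apart. Microglia markers (20 of 20 in the table, none at 0) summed to 3936.3 to 4985.3 CPM in controls, 461.5 to 5165.0 at 1.5 h, 3524.9 to 4389.1 at 3 h and 3083.2 to 4063.8 at 6 h. Fibroblast markers (13 of 15, none at 0) summed to 4791.8 to 6388.3 CPM in controls, 4943.0 to 13422.0 at 1.5 h, 5594.4 to 12209.6 at 3 h and 5010.6 to 9284.2 at 6 h. In each treated group the library apart had the lowest sum. Their mean log2 CPM was 5.34 to 5.67 in controls, 6.77 and 6.79 in the pair at 1.5 h, and 5.76 and 5.92 in the pair at 3 h. At 6 h this mean was 5.36 and 5.58 in the pair and 5.36 in the library apart, all within the range of controls. Neuron markers (13 of 15, none at 0) summed to 481.9 to 573.9 CPM in controls, 508.4 to 629.7 at 1.5 h, 554.1 to 1474.4 at 3 h and 457.0 to 1176.7 at 6 h. Their mean log2 CPM was 3.71 to 4.28 in controls and 4.77 and 4.71 in the pair at 1.5 h. It was 3.24 and 3.43 in the pair at 3 h and 3.51 and 3.56 in the pair at 6 h. In the pairs at 3 and 6 h the sum was thus above the controls while the mean was below them. Oligodendrocyte markers (13 of 15, with Enpp6, Gpr17 and Mag at 0 in at least 1 library) summed to 761.0 to 1292.3 CPM over all libraries. Their mean log2 CPM was 3.57 to 3.98 in controls, 5.27 and 5.36 in the pair at 1.5 h and 3.71 in the library apart. At 3 h it was 2.94 and 3.15 in the pair and 3.41 in the library apart, and at 6 h it was 3.19 to 3.57. Endothelial markers (9 of 12, with Tie1 at 0 in at least 1 library) summed to 45.0 to 132.5 CPM. In bulk RNA fewer cells of a type and less RNA per cell cannot be told apart, and the part of these differences in the changes of the ribosome biogenesis genes was not tested.

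**Figure D5:**
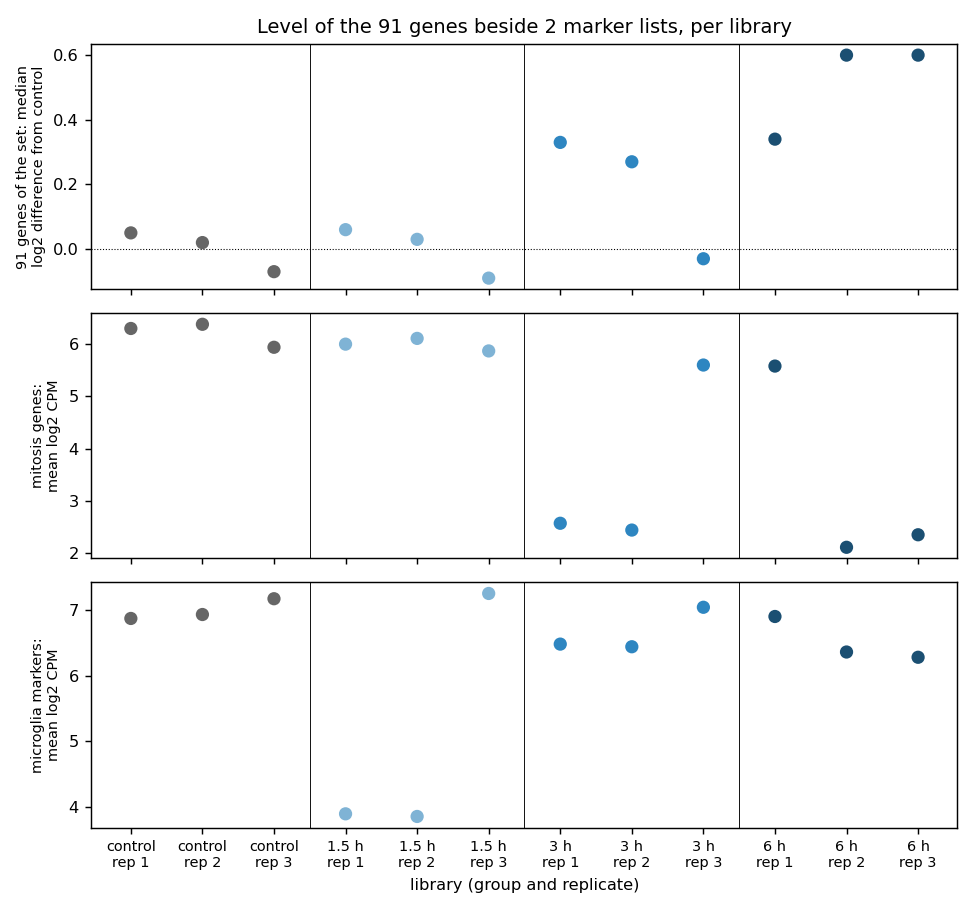
Per library (horizontal axis, control to 6 h): the median log2 difference of the 91 genes from the control mean (top), the mean log2 CPM of 25 mitosis genes (middle) and that of 20 microglia markers (bottom). The pair at 6 h reaches 0.60 with mitosis genes at 2.11 and 2.35, replicate 1 at 6 h is at 0.34 with mitosis genes at 5.58, and replicate 3 at 3 h is at -0.03 with 5.60.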

How the data were processed

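Bulk RNA-seq libraries were made with the NEBNext Ultra kit from 12 samples, per the labels' protocols. The authors deposited, for each gene and library, an estimated count and an FPKM value, and the table was already a selection of 9721 genes. Per the submitters' processing notes StringTie 2.2.1 was used, and its aligner and build were not given in the sources used here. Among deposited counts 9.49% were not whole, and all were rounded. Whether reads were counted by strand is not stated, so overlapping genes may share reads. Genes with low counts were removed by filterByExpr (230 of 9721), libraries were scaled by TMM, and all 12 libraries were fitted together with edgeR 4.0.16 (robust quasi-likelihood test, group as the only term) in R 4.3.3. Adjusted p-values are Benjamini-Hochberg values over 9491 genes with a threshold of 0.05, and SEs were derived from the log2 fold change and its F statistic. Alternatives were RLE, library size and count/FPKM depth scaling, other filters, a replicate block, 2-group fits, DESeq2 1.42.0, limma 3.58.1 on log2(FPKM + 0.1) and log2(FPKM + 1), and leaving out libraries, 17 per comparison. On data simulated for 3 h against control over 9374 genes, edgeR recovered 40% of 2-fold and 82% of 4-fold changes with 5 false calls. DESeq2 recovered 60% and 91% of them, with 38 false calls and 1 call of the wrong sign. A further gene of the set was counted but is not reported here by name. The genes of the set, the 19 gene lists and the tests were chosen with earlier results of these data known. Genes were named by size of change (12 per direction at each time, at 2 CPM or more), by role (3 called and 2 uncalled per list) and from a short list of known factors.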

Additional observations from a re-analysis of the deposited data

Results flagged for a closer look

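For 13 named genes the change against control differed between 1.5 and 3 h by the test of 3 h over 1.5 h (edgeR's quasi-likelihood test, Benjamini-Hochberg adjusted p below 0.05). On the log2 scale the difference was 2.02 for Riok3, 0.90 for Usp36, 0.87 for Ppan, 0.78 for Surf6, 0.76 for Nip7, 0.72 for Heatr1, 0.68 for Gtpbp4, 0.63 for Urb2, 0.50 for Isg20l2, 0.48 for Wdr43 and 0.37 for Utp15. It was -0.58 for Eri1 and -0.72 for Kat2b. Kat2b also differed between 3 and 6 h, by -0.69. In fits to the groups compared alone none of these differences passed the threshold. Groups of 3 libraries were not tested for single outlying libraries.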

How the results depend on the processing

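Counts of called genes below are given as risen and fallen. With library size scaling they were 0 and 3 at 1.5 h, 6 and 20 at 3 h, 28 and 9 at 6 h, 8 and 8 for 3 h over 1.5 h, and 14 and 0 for 6 h over 3 h. With depth from the ratio of count to FPKM they were 0 and 3, 6 and 17, 32 and 8, 9 and 5, and 14 and 0 in the same order. Of all genes 1.77%, 7.13%, 13%, 6.47% and 4.06% rose and 2.29%, 18.1%, 18%, 14.1% and 1.4% fell. With limma on log2(FPKM + 0.1) the counts were 0 and 3, 7 and 20, 33 and 13, 9 and 9, and 15 and 0, and with log2(FPKM + 1) 0 and 3, 7 and 20, 36 and 13, 9 and 10, and 15 and 0. For the first, 1.74%, 7.28%, 13.4%, 7.46% and 3.79% of all genes rose and 2.23%, 21.4%, 20.7%, 15.4% and 1.27% fell. For the second, 1.69%, 7.26%, 13.8%, 7.53% and 4.24% rose and 2.37%, 22.3%, 21.4%, 16.3% and 1.24% fell. With DESeq2 the counts were 0 and 1, 20 and 8, 47 and 8, 18 and 7, and 12 and 2. Over all genes 5.46%, 17.8%, 21.8%, 15.5% and 5.1% rose and 2.98%, 11.4%, 15.8%, 14% and 3.91% fell. In 2-group fits the counts were 0 and 0, 13 and 4, 46 and 7, 0 and 0, and 0 and 0. There 1.84%, 13.6%, 22.5%, 0.682% and 0.0219% of all genes rose and 0.729%, 9.28%, 17.2%, 0.141% and 0.0546% fell. Without the 3 treated libraries closest to control the counts were 18 and 16, 44 and 24, 58 and 24, 40 and 19, and 25 and 5. Without the filter 9 genes fell at 6 h (against 15.2% of all genes). Leaving out 1 library gave 0 to 3 risen and 0 to 3 fallen at 1.5 h, 6 to 34 and 1 to 10 at 3 h, 23 to 53 and 2 to 11 at 6 h, 3 to 27 and 0 to 9 for 3 h over 1.5 h, and 0 to 5 and 0 to 2 for 6 h over 3 h. The cause was not tested, though leaving out libraries also means fewer samples. The 3 left out together were also picked from these same values.

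With the replicate number as a block the counts were 0 and 0, 10 and 4, 40 and 5, 11 and 2, and 1 and 0. In that fit 1.44%, 10.6%, 17%, 8.39% and 0.906% of all genes rose and 0.674%, 6.33%, 10.4%, 4.71% and 0.769% fell. Pairing was looked at through deviations of log2 levels from the mean of each group, over all genes tested. These deviations correlated at -0.657 to 0.599 between same-numbered libraries of different groups and at -0.708 to 0.794 between differently numbered ones. Of 12 libraries 6 correlated best with one of their own number. The highest value joined replicate 3 at 3 h and replicate 1 at 6 h, both libraries that stood apart, so these values cannot decide on pairing. The numbers were not taken as pairs.

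At 6 h 20 of 44 risen and 2 of 5 fallen genes were called under all 17 alternatives, and at 3 h 6 of 17 and 1 of 7. The sign of a named called change turned once, for Utp15 at 3 h, which was -0.013 with library size scaling. Small changes of genes with few counts were not detectable at this depth and number of libraries.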
